A study of Canis lupus familiaris with 6 samples.

Results

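The transcripts described here are those of the matrix metalloproteinases (MMP), the ADAM, ADAMTS and ADAMTSL proteins, and the tissue inhibitors of metalloproteinases (TIMP). They were taken as every probe set of an Affymetrix canine array whose single annotated gene symbol is one of these names followed by a number. This gave 108 of 42924 probe sets, standing for 59 of 15115 named genes: 21 MMP, 16 ADAM, 14 ADAMTS, 5 ADAMTSL and 3 TIMP genes. The cells were MDCKII, an epithelial line from dog kidney that polarizes in culture, carrying no genetic change named in the labels. The 2D group (3 arrays) was grown as a confluent monolayer on plastic in MEM, and the 3D group (3 arrays) formed cysts on a layer of 100 µl of Matrigel, an extract of basement membrane, in 60 mm dishes under MEM with 2% Matrigel. Both groups were harvested 36 h after plating, and the design asked which genes are raised in cells that build a lumen. Since only the 3D cells met Matrigel, contact with matrix and growth as cysts cannot be told apart.

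MMPs are zinc endopeptidases, secreted or held at the membrane, that cleave collagens, other matrix proteins and many surface proteins. ADAMs are membrane proteins, of which some shed growth factors and receptors from the cell surface and others lack a working active site and act in adhesion. ADAMTS enzymes are secreted and process proteoglycans and procollagens, ADAMTSL proteins resemble them without the protease domain, and TIMPs bind the active sites of these enzymes. In cultured kidney tubule cells pericellular proteolysis is known from work on tubule branching and on invasion of the matrix.

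The members that passed the test between the cultures were probe sets of inhibitors. TIMP3 was lower in 3D on each of its 4 probe sets, by 3.62-fold to 4.69-fold, and TIMP2 was 1.62-fold higher on its only probe set. None of the 57 other genes passed the test, a limma comparison of the arrays of replicates 2 and 3 (n = 2 arrays per group) adjusted over all 42924 probe sets at a threshold of 0.05. An unadjusted p under 0.05 was seen on 15 members (13.9%, against 23.5% of all probe sets), 10 of them of genes that did not pass. In all, 1 member probe set was higher and 4 were lower. Their share of 4.63% lay below the 6.61% of all probe sets that passed (3.65% higher and 2.96% lower).

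Replicate 1 lies on a scale of its own, with array medians of 5.42 in 2D and 5.26 in 3D against 7.06 to 7.08 on the other 4 arrays, so it gives a separate difference without a test. The 7 measured kidney epithelial markers, among them CDH1, EPCAM, KRT8 and CDH16, averaged 10.64 to 10.75 on the 4 tested arrays, with single markers between 7.04 and 14.01. None of 8 fibroblast, 6 endothelial and 6 leukocyte markers passed between 2D and 3D. The fibroblast markers averaged 6.19 to 6.22, the endothelial ones 6.44 to 6.56 and the leukocyte ones 6.32 to 6.50 on these arrays. Single markers lay between 4.83 and 7.32, 5.42 and 8.47, and 5.83 and 6.90 in turn. The fibroblast and endothelial ranges thus overlapped the epithelial range. The table carries no detection calls, so a level near the lower quartile (5.64 to 5.67 on the 4 arrays) may be background. Added poly-A control RNAs (36 probe sets) were brighter than the 2D mean by 0.99 on 3D replicate 2 and by 0.14 on 3D replicate 3, on the log2 scale. The 3' minus 5' difference of 1 actin control pair was -0.07 and -0.02 in 2D and 0.10 and 0.32 in 3D, and that of 1 GAPDH pair 0.20 and 0.16 in 2D and 0.31 and 0.40 in 3D. The other actin pair had the lower mean in 3D (0.71 and 0.89 in 2D, 0.57 and 0.76 in 3D), with overlapping groups, and the other GAPDH pair also overlapped (0.14 and 0.13 in 2D, 0.16 and 0.12 in 3D). In replicate 1 the poly-A controls were 0.83 brighter in 3D than in 2D. There the actin pair named first gave -0.29 in 2D and -0.08 in 3D, and the other 2.17 and 2.90. The GAPDH pair named first gave 1.67 and 1.47, and the other 0.52 and 0.50. The part of these controls in the results was not tested.

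TIMP3, an inhibitor that is bound to the extracellular matrix and blocks ADAMs and ADAMTS enzymes as well as MMPs, was measured by 4 probe sets. All levels here are deposited log2 values. On the first the level was 10.99 and 11.05 on 2D replicates 2 and 3, against 8.63 and 9.27 on the 3D arrays of the same replicates. On the second it was 8.80 and 8.92 in 2D, against 6.69 and 6.95 in 3D. Both 3D arrays lay below both 2D arrays on each, and the space between the groups was wider than the gap between arrays of a group. The third probe set read 8.78 and 9.03 in 2D, against 6.95 and 7.15 in 3D. The fourth read 9.62 and 9.78 in 2D, against 7.16 and 7.78 in 3D. The groups did not overlap on either of these, as on 51.8% of all probe sets.

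In log2 terms TIMP3 fell by 2.07 (SE 0.208, limma adjusted p = 0.0102) on the first probe set. The second gave -2.04 (SE 0.127, limma adjusted p = 0.00408). The third gave -1.86 (SE 0.133, limma adjusted p = 0.00497) and the fourth -2.23 (SE 0.208, limma adjusted p = 0.00861). In the replicate 1 pair the levels went from 9.86 to 7.5, from 8.69 to 5.77, from 7.98 to 6.19 and from 9.31 to 6.38 between 2D and 3D. These differences of -2.36, -2.92, -1.79 and -2.93 have the same sign as the tested ones, as for 73.9% of all probe sets that passed. In whole cultures, fewer cells that transcribe a gene and less RNA per cell cannot be told apart. Leaving out any 1 of the 4 arrays ended the call for all 42924 probe sets, TIMP3 included (limma adjusted p = 0.0921 to 0.421), while its difference stayed between -2.54 and -1.73. With the replicate number as a block, the adjusted p was 0.153.

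TIMP3 lies within the SYN3 gene in the dog gene table, and SYN3, which encodes a synapsin of nerve terminals, has 4 probe sets of its own. Their differences ran from -0.18 to 0.015 and none passed (lowest limma adjusted p = 0.38). In replicate 1 they differed by -1.58 to 2.18, in both directions. TIMP1 lies within SYN1 and MMP14 within SLC7A7 in the same table, and these host genes were not analysed here.

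TIMP2, which inhibits MMPs and also takes part with MMP14 in the activation of MMP2, was measured by 1 probe set. Its level was 7.46 and 7.44 in 2D, against 8.30 and 8.0 on 3D replicates 2 and 3. Both 3D arrays lay above both 2D arrays, though the groups did not overlap on 51.8% of all probe sets. TIMP2 rose by a log2 difference of 0.70 (SE 0.129, limma adjusted p = 0.0354). In replicate 1 the level was 6.36 in 2D and 6.22 in 3D, a difference of -0.14, so the direction was not shared. As for every probe set, it no longer passed once any 1 array was left out (0.55 to 0.85, limma adjusted p = 0.0921 to 0.435), nor with the replicate block (limma adjusted p = 0.165).

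TIMP1, a secreted inhibitor known to bind the proenzyme of MMP9, did not pass. Its level was 8.58 and 8.05 in 2D and 9.86 and 8.19 in 3D, with a difference of 0.71 (SE 0.512, limma adjusted p = 0.48). The 3D arrays were 1.67 apart and the 8.19 of 3D replicate 3 lay within the 2D range. The difference was -0.13 without 3D replicate 2 and 1.55 without 3D replicate 3. In replicate 1 TIMP1 read 7.38 in 2D and 7.85 in 3D. TIMP4 was not analysed here.

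**Figure D1:**
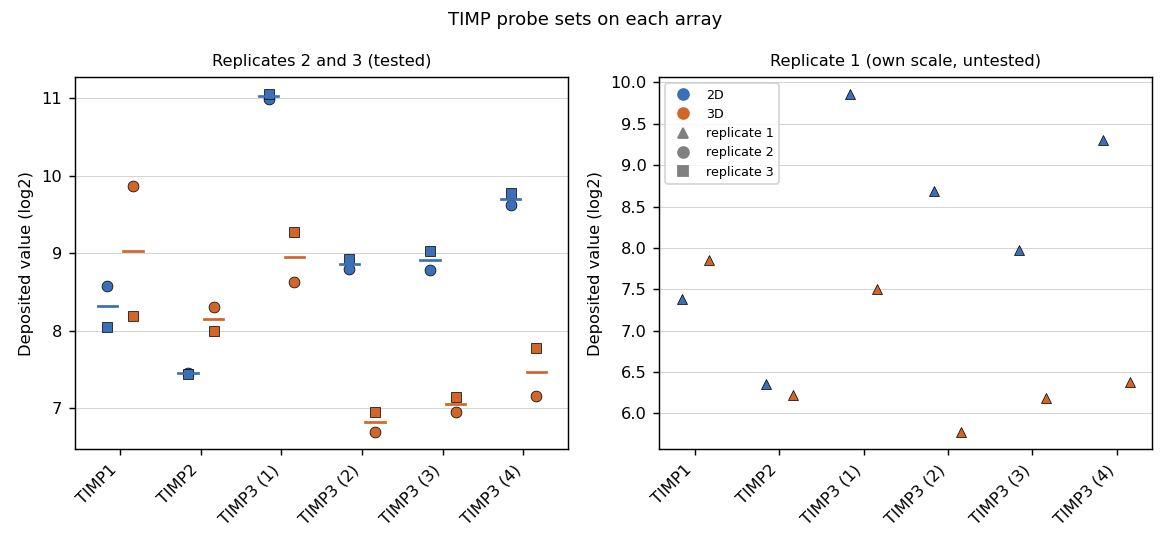
Deposited log2 value (vertical axis) of the 6 TIMP probe sets on each array, with 2D in blue and 3D in orange, marker shapes for replicates and lines for the mean of 2 arrays; the right panel holds replicate 1 on its own scale. TIMP3 probe sets 1 to 4 are in the order of the text, and in both panels all 3D values of TIMP3 lie below the 2D values of the same probe set, while TIMP1 in 3D spans 8.19 to 9.86.

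None of the 30 MMP probe sets passed, and their median difference was -0.007, against -0.005 over all probe sets. Collagenases cleave fibrillar collagen, and MMP13 (collagenase-3) was the MMP with the largest difference. On its 2 probe sets it read 7.71 and 9.56 on 2D replicate 2, but 5.81 and 7.66 on 2D replicate 3. The 3D levels were 5.33 and 5.41 on the first, and 7.57 and 7.22 on the second. A single array, 2D replicate 2, stood 1.90 above its partner on both probe sets, while 2D replicate 3 lay close to the 3D arrays. The differences were -1.39 (SE 0.555, limma adjusted p = 0.203) and -1.22 (SE 0.563, limma adjusted p = 0.265), and without 2D replicate 2 they were -0.44 and -0.27, and without 2D replicate 3 they were -2.34 and -2.17. Replicate 1 gave -1.56 and -1.38 on its own scale. The other collagenases, MMP1 and MMP8, differed by 0.03 to 0.14 on 3 probe sets.

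Neighbours were read from the protein-coding genes of the dog gene table, passing over any with placeholder (LOC) symbols. On this reading MMP13 begins a run of MMP genes, in which MMP12, MMP3, MMP1, MMP8, MMP27, MMP20 and MMP7 follow. Of these, 6 genes had a probe set here. All 7 of their probe sets had means below the lower quartile over the 4 arrays (5.66), none passed, and the differences ran from -0.245 for MMP7, a matrilysin, to 0.14 for MMP8.

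The gelatinases MMP2 and MMP9 digest denatured collagen and basement membrane collagen, and neither passed. On 1 of its 3 probe sets MMP9 read 6.97 and 6.08 in 2D and 7.45 and 7.01 in 3D. The lower 3D array lay barely above the higher 2D array, and the 2D arrays were 0.89 apart. This gave a difference of 0.71 (SE 0.301, limma adjusted p = 0.23), which was 0.26 without 2D replicate 3 and 1.15 without 2D replicate 2. Its other probe sets differed by 0.02 and -0.14, and replicate 1 by -0.26, -0.56 and -0.12. MMP2 read 6.88 and 6.95 in 2D and 7.10 and 7.04 in 3D on the probe set with its highest mean (0.16, SE 0.0999, limma adjusted p = 0.426). The others gave 0.13 (limma adjusted p = 0.61) and 0.37 (SE 0.106, limma adjusted p = 0.104). The value of 0.104 was the lowest adjusted p among member probe sets outside the TIMPs, and came from levels between 4.47 and 4.94. All 3 MMP2 probe sets were lower in 3D in replicate 1 (-0.80, -1.64 and -0.28, in the order of the tested differences).

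Membrane-type MMPs act at the cell surface, and MMP14 is the main activator of MMP2. MMP14 read 6.48 and 6.61 in 2D and 6.65 and 6.39 in 3D, so that the groups overlapped (-0.03, SE 0.128, limma adjusted p = 0.944). All 6 genes of this class were measured, on 8 probe sets, with differences from -0.395 to 0.12 and none passing (lowest limma adjusted p = 0.111). The lowest were MMP17 on 1 of its 3 probe sets (7.16 and 7.42 in 2D, 6.90 and 6.89 in 3D) and MMP24 (6.36 and 6.37 in 2D, 6.04 and 6.05 in 3D). On both the groups did not overlap, as on 47.2% of member probe sets and 51.8% of all probe sets; these genes were picked after their values were seen, and MMP24 overlaps MMP24OS in the gene table. MMP15 read 6.30 and 6.36 in 2D and 6.58 and 6.32 in 3D (0.12, limma adjusted p = 0.639), with a replicate 1 difference of -2.70.

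Of the remaining MMPs, MMP23 read 6.67 and 6.60 in 2D and 6.30 and 6.32 in 3D (-0.33, SE 0.0986, limma adjusted p = 0.113), and differed by -0.60 in replicate 1. MMP26, a small matrilysin, read 4.70 and 4.72 in 2D and 4.98 and 5.14 in 3D (0.35, SE 0.107, limma adjusted p = 0.115), below the lower quartile of the arrays throughout. Neither passed, and the groups of each did not overlap, as on 51.8% of all probe sets. MMP21 read 4.81 and 5.22 in 2D and 5.01 and 4.87 in 3D, and its replicate 1 difference of 2.84 rests on a 2D value of 1.93, under that array's lower quartile of 3.52. The stromelysins MMP3 and MMP11 differed by 0.07 and 0.00.

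**Figure D2:**
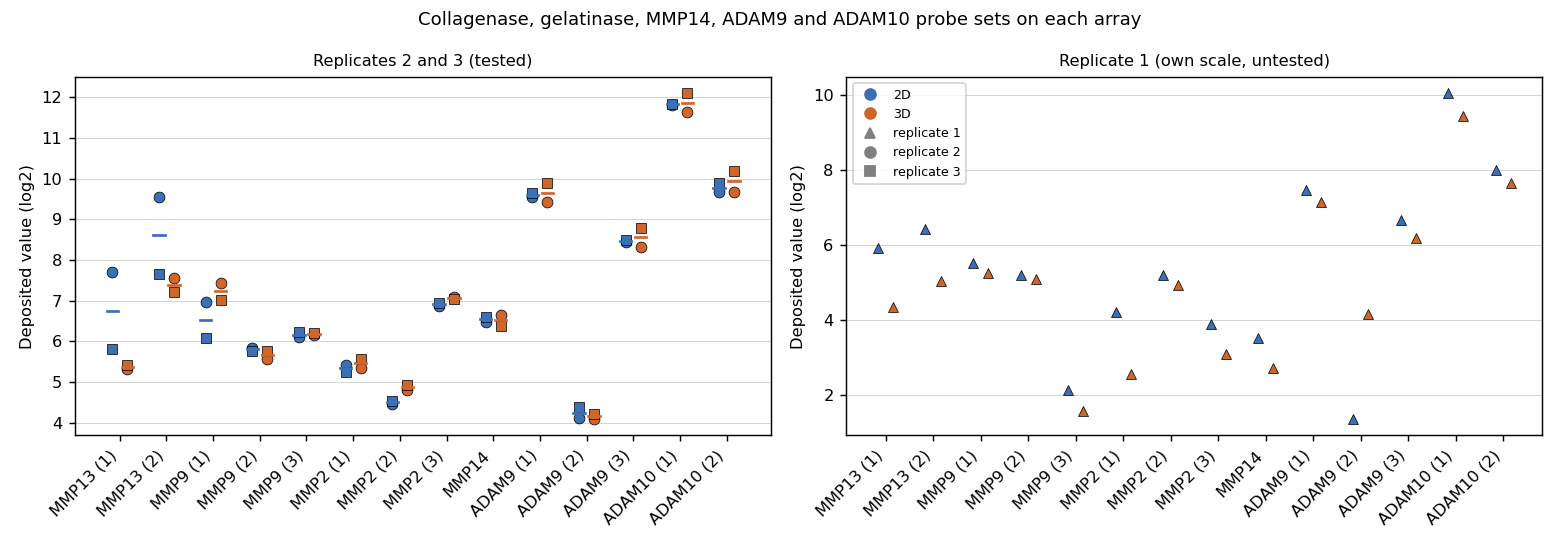
Deposited log2 value (vertical axis) of the probe sets of MMP13, MMP9, MMP2, MMP14, ADAM9 and ADAM10 on each array, drawn as for the TIMPs, with replicate 1 on its own scale at right; numbers in brackets count the probe sets of a gene. On MMP13 the 2D replicate 2 array stands 1.90 above 2D replicate 3, and on ADAM10 the 2D and 3D values overlap.

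Of the ADAMs with a protease active site, 8 genes were measured on 17 probe sets, and none passed. ADAM10, the sheddase of Notch receptors and E-cadherin, read 11.82 and 11.84 in 2D and 11.64 and 12.10 in 3D on its first probe set. The 3D arrays lay on either side of the 2D arrays, with a difference of 0.04 (SE 0.164, limma adjusted p = 0.928). Its second probe set gave 0.16 (SE 0.19), and replicate 1 gave -0.61 and -0.36. ADAM9, also a sheddase, read 9.55 and 9.65 in 2D and 9.42 and 9.90 in 3D on the probe set with its highest mean (0.06, SE 0.171, limma adjusted p = 0.889). On both ADAM10 probe sets and the 2 brighter ADAM9 probe sets the 3D replicate 3 array was above 3D replicate 2, by 0.46, 0.52, 0.48 and 0.48. These gaps between 3D arrays were larger than any of the 4 differences between the cultures. ADAM17 was not analysed here.

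ADAM28, an ADAM first described in lymphocytes, had the largest ADAM difference. Its 2 probe sets read 6.08 and 6.41, and 6.27 and 6.17, in 2D. In 3D they read 6.58 and 6.77, and 6.52 and 6.48. Both 3D arrays were above both 2D arrays on each, but the groups did not overlap on 51.8% of all probe sets. Replicate 1 was higher in 3D as well (0.29 and 0.19). The differences of 0.43 (SE 0.146, limma adjusted p = 0.145) and 0.28 (SE 0.101, limma adjusted p = 0.167) did not pass. ADAM15 differed by 0.09 and 0.16, ADAM8 by 0.01, ADAM33 by 0.02 on each of its probe sets and ADAM19 by -0.03 to 0.08. The 2 probe sets of ADAM21 differed by 0.32 and 0.03, and by -1.95 and 2.35 in replicate 1. ADAM21 overlaps ADAM20, a close relative, in the gene table, and whether its signal is shared was not tested.

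The 8 ADAMs without a protease active site, several of them sperm or nerve proteins, had 13 probe sets with differences from -0.27 to 0.105 and none passing (lowest limma adjusted p = 0.289). ADAM2, a sperm surface protein, read 4.12 and 3.99 in 2D and 4.03 and 4.04 in 3D, and ADAM23, a brain adhesion protein, read 5.97 and 5.80 in 2D and 5.85 and 6.0 in 3D. The groups overlapped on both. Their replicate 1 differences of -3.94 and -2.89 came from 3D values of 0.00 and 0.49, far under that array's lower quartile of 3.38.

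The ADAMTS and ADAMTSL genes gave 42 probe sets in all, of which none passed. The proteoglycan-cleaving ADAMTS enzymes had 6 probe sets, and their range ran between both aggrecanases of cartilage, from -0.29 for ADAMTS5 to 0.315 for ADAMTS4 (SE 0.125, limma adjusted p = 0.2). ADAMTS4 read 6.34 and 6.07 in 2D and 6.55 and 6.49 in 3D, but 5.48 in 2D and 3.35 in 3D in replicate 1, and so changed sign between the scales. The procollagen N-proteinases ADAMTS2, ADAMTS3 and ADAMTS14 differed by -0.10 to 0.14 on 5 probe sets, and the other 7 ADAMTS genes by -0.285 to 0.235 on 19. The ADAMTSL genes, whose products bind matrix fibrils, kept within -0.215 and 0.115 on 12 probe sets. The larger of the gaps between arrays of a group had a median of 0.18 and a highest value of 0.36 over the ADAMTS probe sets, and of 0.125 and 0.22 over the ADAMTSL probe sets.

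By the probe set of highest mean, ADAMTS20 (-4.72), ADAMTS18 (-3.28), ADAMTS16 (3.25) and ADAMTSL3 (-2.73) had the widest replicate 1 differences of these families. On the tested arrays they differed by 0.03, -0.16, 0.20 and 0.07, with limma adjusted p of 0.927, 0.457, 0.385 and 0.773. In each case 1 of the 2 replicate 1 values lay under its array's lower quartile: 0.26, 1.89 and 2.38 in 3D for ADAMTS20, ADAMTS18 and ADAMTSL3, and 2.61 in 2D for ADAMTS16. The 6 probe sets of ADAMTS6 ran from -4.52 to 0.69 in replicate 1, against -0.285 to 0.235 on the tested arrays.

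**Figure D3:**
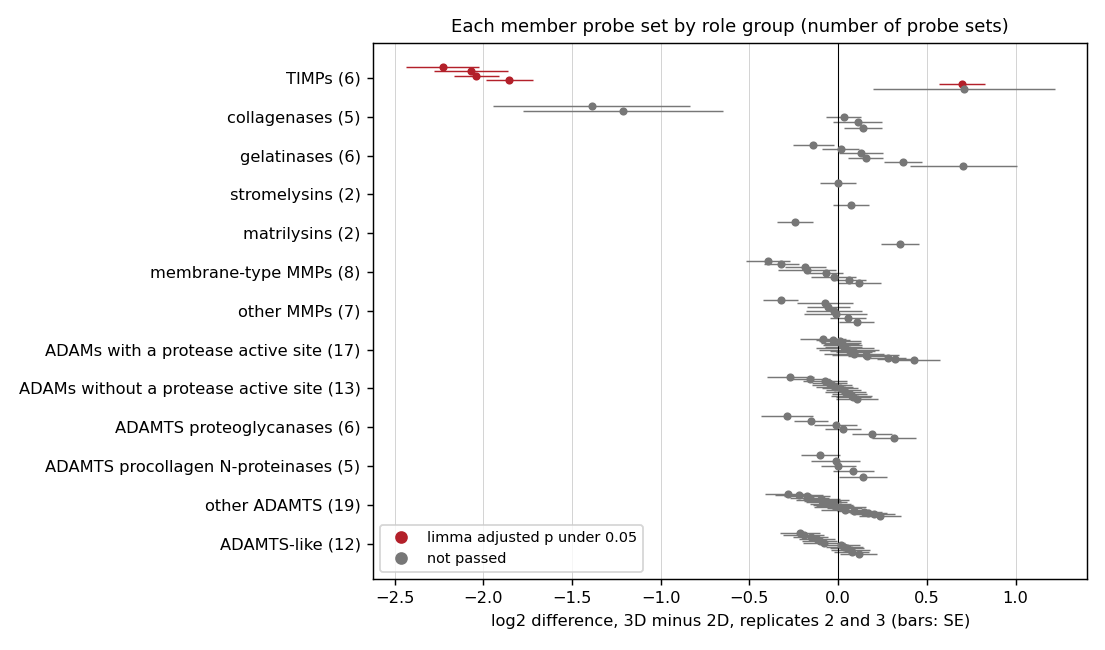
Log2 difference, 3D minus 2D, of each of the 108 probe sets on the arrays of replicates 2 and 3 (horizontal axis, bars are the limma SE), in rows by role with the number of probe sets in brackets; red marks those that passed. Apart from 4 TIMP3 probe sets near -2, TIMP2 and TIMP1 near 0.7, 2 MMP13 probe sets and 1 of MMP9, all lie between -0.395 and 0.43.

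Across the 108 probe sets the differences had a median of 0.012, against -0.005 over all probe sets. At least a 2-fold difference was seen on 6 (5.56%, against 1.97% of all), the 4 of TIMP3 and the 2 of MMP13. By the probe set of highest mean, these were 2 of 59 genes (3.39%, against 2.13% of all genes). The difference was larger than the gap between the arrays of either group on 37 probe sets (34.3%, against 40.0% of all). TIMP3 and TIMP2 stood well clear of that gap, whereas MMP13, MMP9 and TIMP1 had differences smaller than it. Without TIMPs, MMP13 and MMP9, the largest gap was 0.52. Of the members, 38 (35.2%, against 25.0% of all) had a mean below the lower quartile, where a change would be hard to detect, and 0 of these 38 were TIMP probe sets.

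**Figure D4:**
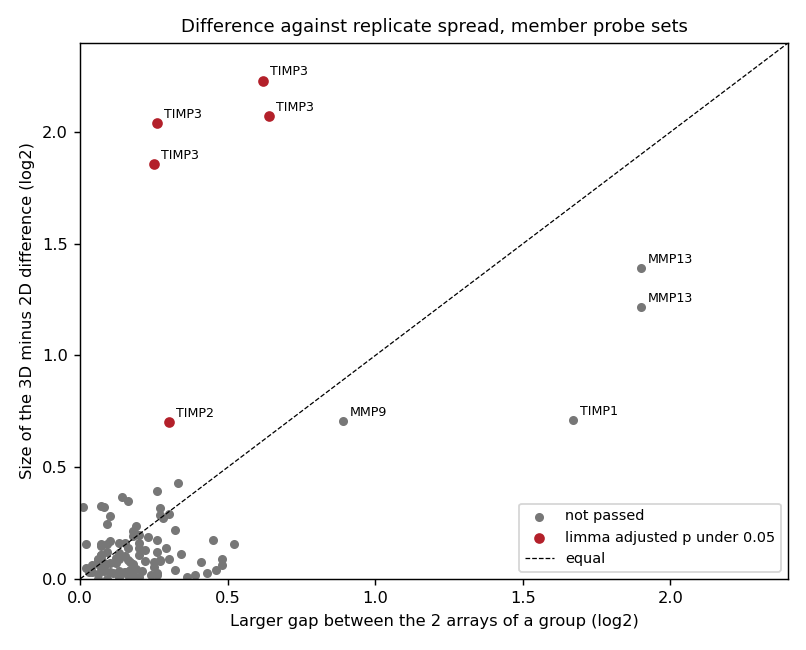
Size of the 3D minus 2D difference (vertical axis, log2) against the larger gap between the 2 arrays of a group (horizontal axis, log2) for the 108 probe sets, with a dashed line where they are equal and red for those that passed. TIMP3 and TIMP2 lie above the line, and MMP13, MMP9 and TIMP1 below it.

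In the replicate 1 pair, 76 member probe sets (70.4%) were lower in 3D, against 55.9% of all probe sets. The differences were wide: 45 (41.7%, against 34.0% of all) were at least 2-fold, and 33 of those 45 had a value under the lower quartile of its array. The sign was the same as on the tested arrays for 53 of 108 members (49.1%, against 54.4% of all probe sets). It was the same for the 6 member probe sets with at least a 2-fold tested difference, which stand for only 2 genes, TIMP3 and MMP13. Of all such probe sets it was the same for 684 of 844 (81.0%). Of 32 genes with several probe sets, 16 had both signs among them in replicate 1 and 18 on the tested arrays. In 11 of the 32 the probe sets had replicate 1 differences more than 2 apart on the log2 scale, and on the tested arrays the widest range within a gene was 0.845, for MMP9. Of both genes that passed, TIMP3 had the same direction in replicate 1 and TIMP2 had the opposite one.

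**Figure D5:**
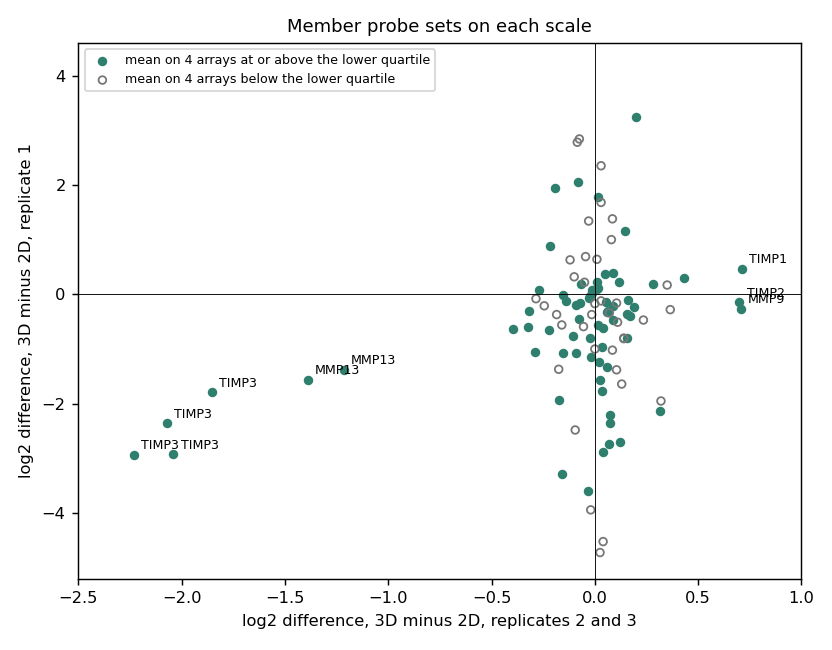
Log2 difference, 3D minus 2D, of the 108 probe sets on the tested arrays (horizontal axis) and in the replicate 1 pair (vertical axis), with open circles for probe sets whose mean over the 4 tested arrays is below the lower quartile. The TIMP3 and MMP13 probe sets lie at lower left, with replicate 1 differences from -2.93 to -1.38. TIMP2, TIMP1 and 1 MMP9 probe set lie near a tested difference of 0.7. The other members spread from -4.72 to 3.25 vertically, with tested differences between -0.395 and 0.43.

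Partners of these proteins were described from lists, with each gene represented by its probe set of highest mean, on which 7.28% of 15115 genes passed. Of 12 measured partners of ADAM10 and ADAM17, TSPAN15, a tetraspanin that escorts ADAM10, was higher and 11 did not pass. TSPAN15 read 7.39 and 7.54 in 2D and 8.37 and 8.33 in 3D, a rise of 0.89 (SE 0.106, limma adjusted p = 0.0136), and 5.45 in 2D and 6.61 in 3D in replicate 1. The groups did not overlap on the tested arrays, as on 53.3% of all genes, and the single replicate 1 pair had the same direction. The list's median was 0.068, against -0.01 over all genes.

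Among 26 measured substrates that ADAMs shed, 1 was higher, 2 were lower and 23 did not pass, with a median of -0.087. EGF, a growth factor made in the distal tubule, rose from 9.92 and 9.98 to 10.79 and 11.18 (limma adjusted p = 0.0194); its second probe set did not pass (0.50, limma adjusted p = 0.0992) and differed by -0.14 in replicate 1. EREG, a ligand of the EGF receptor, fell from 7.10 and 7.42 to 6.12 and 6.44 (-0.98, limma adjusted p = 0.0273). MET, the receptor of hepatocyte growth factor, fell from 10.78 on both 2D arrays to 10.21 and 10.35 (limma adjusted p = 0.0475). Replicate 1 differences were 0.79 for the first EGF probe set, -0.54 for EREG and -1.27 for MET, of the same sign as those tested.

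Of 10 measured activating proteases and their inhibitors, HPN, the membrane serine protease hepsin, was higher on 1 of its 3 probe sets (11.05 on both 2D arrays, 11.63 and 11.49 in 3D, limma adjusted p = 0.0452), and 9 did not pass. Of 12 further inhibitors and MMP partners, THBS1, the matricellular protein thrombospondin-1, was lower and 11 did not pass. It read 13.22 and 13.30 in 2D and 12.67 and 12.54 in 3D (limma adjusted p = 0.0257), and its other 2 probe sets gave -0.40 and -0.47 (limma adjusted p = 0.0708 and 0.07). In replicate 1 the 3 THBS1 probe sets differed by -1.47 to -2.27. None of 12 other zinc proteases, among them BMP1, the meprins and neprilysin, passed (lowest limma adjusted p = 0.186).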

How the data were processed

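Biotin-labelled cRNA from 4 µg of total RNA was hybridized to 1-colour arrays, per the labels' protocols. The deposited values are log2 intensities; RMA and limma, without versions, are the tools of the submitters' processing notes. How replicate 1 came to lie on a scale of its own is not given in these sources. In them all of the 1045 and 1746 values below 1 lie within 0.006 of log2 of a multiple of 0.1. The log base rests on the notes and the range of values. The number of arrays limits the precision.

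After 111 control probe sets were left out, 42924 were fitted with lmFit and eBayes of limma 3.58.1 (R 4.3.3), two-sided, on the arrays of replicates 2 and 3, with Benjamini-Hochberg adjustment over all and no filter on level. The platform annotation gave 1 symbol for 29254 probe sets, several for 439, and left 13231 unnamed; 106 of 108 member probe sets matched UU_Cfam_GSD_1.0, used for names and neighbours only. The fit was tested on simulated data with independent normal noise. The spread of this noise was taken from the limma fit of the same 4 arrays, so the simulation does not give the share of false calls in the measured data. Of 100 probe sets changed by 1 and 100 changed by 2 on the log2 scale, 99 and 100 passed. So did 20 unchanged probe sets. The labels call the replicates biological, with nothing on separate cultures, so p-values measure the spread between these samples.

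The members and lists were chosen with earlier results of these data known. Genes named by rule were 10 fixed ones (8 measured), those that passed, and the 8 with the largest difference on each scale, by the probe set of highest mean. MMP17, MMP24, ADAMTS4, ADAM21 and other members outside this rule were picked after their values were seen. No block was used in the test, since no label states one. Replicate numbers were also checked for pairing: deviations of same-numbered arrays from the group means correlated at 0.001 on the 4 tested arrays. Over all 6 arrays they correlated at 0.497 to 0.545, along with the difference in scale. Alternatives were other array sets, normalizations, priors, a level filter, the replicate block, single arrays left out and gene means. Python 3.11.15, pandas 2.3.3 and matplotlib 3.10.9 were used for joins and plots.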

Additional observations from a re-analysis of the deposited data

How the results depend on the processing

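With 2 arrays per group, the calls hold only with all 4 tested arrays. Without 1 of them, whichever it is, a group has 1 array and the fit has 1 residual degree of freedom. Leaving out any 1 of them (replicate 2 or 3 of either culture) gave 0 to 0 calls among the 108 member probe sets, the 59 genes and all probe sets, in place of 5, 2 and 2837; 9 to 15 members and 4683 to 10892 of all probe sets then had an unadjusted p under 0.05 in limma. With the replicate block on the 4 arrays the counts were 0, 0 and 0, with 15 members and 8325 of all probe sets at an unadjusted p under 0.05, and 1 residual degree of freedom. All 6 arrays gave 0, 0 and 0 without a block (4 members and 105 of all at an unadjusted p under 0.05), with the block (6 and 2723) and when quantile normalized with the block (7 and 3517). In these 6-array fits TIMP3 differed by -2.46 to -1.82 and TIMP2 by 0.42 to 0.45. Median centring, renewed quantile normalization, the level filter, trend and robust priors and, for genes, averaging over a gene's probe sets kept the 5 and 2 calls, with 2433 to 3210 over all probe sets.

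Some members that did not pass changed sign. In the 6-array fits without a block, with the block and quantile normalized with it, ADAM10 gave -0.18, -0.18 and -0.16, ADAM9 -0.07, -0.07 and -0.04, ADAM23 -0.94, -0.94 and -0.60, and MMP2 -0.16, -0.16 and -0.06. MMP15 gave -0.82, -0.82 and -0.61, ADAMTS20 -1.56, -1.56 and -1.08, ADAMTSL3 -0.86, -0.86 and -0.61 (-0.03 averaged over its probe sets), and MMP21 0.90, 0.90 and 0.75. With 1 array left out, values ran from -0.19 to 0.27 for ADAM10, -0.18 to 0.30 for ADAM9, -0.09 to 0.05 for ADAM2, -0.05 to 0.13 for ADAM23, -0.16 to 0.11 for MMP14, -0.01 to 0.25 for MMP15, -0.28 to 0.13 for MMP21, -0.03 to 0.08 for ADAMTS20 and -0.13 to 1.55 for TIMP1. The 6-array fits mix the scales, and the cause of the other changes was not tested.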
